A study of Mus musculus with 12 samples.

Results

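Swimming without any supplement was compared with tumour control in 4T1-LUC mammary tumours of BALB/c mice, using the 6 of the series' 12 RNA sequencing libraries whose titles name these groups, 3 for swimming and 3 for control. All 21899 genes of the deposited table were considered, and 13638 had enough counts to be tested. The 4T1 line is a mouse mammary carcinoma line of BALB/c origin, and LUC marks cells that carry luciferase. The mice were 4 to 6 weeks old, received 0.2 mL of cell suspension under the skin of the chest and abdominal wall, and were gavaged daily with 200 µL of corn oil in both groups. Control mice were not exercised, whereas swimming mice swam for 30 min beginning 30 min after gavage. The other 6 libraries came from curcumin (100 mg/kg in corn oil) and from curcumin with swimming, called combination here, and entered the comparison through the shared estimate of spread. The labels do not say when tumours were taken, how long after the last swim, or whether each library is a separate animal, and the 30 mice they state exceed 5 groups of 5. The p-values therefore measure the spread between these libraries, which may in part be technical.

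Swimming is a whole-body stress as well as exercise for a mouse, and it raises circulating glucocorticoids and catecholamines. Glucocorticoids act through a nuclear receptor that induces a small set of genes in many tissues, among them the clock gene Per1. In a tumour, low oxygen stabilises HIF transcription factors, which induce angiogenic factors and glycolytic enzymes, and vessels supply oxygen through an endothelium whose junctions and tone are set by receptors such as Tie2, VE-PTP and the sphingosine 1-phosphate receptors.

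The 6 libraries held 15444877 to 17278826 counts each. Levels are CPM (counts scaled to library size, with the TMM correction for composition), and a floor of 3 counts stood at 0.174 to 0.194 CPM. The pieces held cancer cell transcripts, with Epcam at 280 to 368 CPM and Krt18 at 843 to 977 CPM, together with stromal, vascular and immune transcripts, so they were bulk tumour although the label names a breast cancer cell. Control 2 stood apart from controls 1 and 3. Its neutrophil marker level (mean centred log2 CPM over the list) was 1.50, against -0.36 and -0.21, its skeletal muscle level was -2.95, against 0.67 and 1.91, and its cell cycle level was -1.08, against 0.13 and -0.01. Swimming 2 was low in T cell markers, at -1.63 against 0.23 and 0.81 in swimming 1 and 3, and in muscle markers, at -2.42 against -0.27 and 0.37. Mitochondrially encoded genes took 4.61 ± 0.26% of counts in swimming and 3.68 ± 0.68% in control (SD, n = 3 each), with an exact permutation p of 0.1, the smallest that 3 against 3 allows (two-sided).

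Of 13638 genes, 40 were called at an adjusted p of 0.05 or below (0.293%, edgeR quasi-likelihood test with Benjamini-Hochberg adjustment). Higher in swimming were 21 (0.154%) and lower were 19 (0.139%). The largest falls were in Slc6a2, Jam2, Il1rl1, Meox2, Aqp1 and Ptprb, and the largest rises in D7Ertd443e, Slc9a4, Il1r2, Per1, Cd80 and Cytip. Most changes were small: 26 of the 40 were under 1 on the log2 scale, and the smallest was 0.41. In each of the 40 the 3 swimming and 3 control libraries did not overlap, a pattern that 5.83% of tested genes showed upwards and 7.24% downwards. At an unadjusted p under 0.05 stood 805 genes higher (5.9%) and 982 lower (7.2%), and the median log2 fold change over all tested genes was -0.01, with 48.0% positive.

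The number of called genes depended on single libraries and on the test, although all 40 kept their sign in each of the 20 other settings in which they were tested. Leaving out control 2 gave 639 calls, the 40 among them, and leaving out control 1 or 3 gave 8 each. Without swimming 1, 2 or 3 there were 0, 23 and 22 calls, without curcumin 1, 2 or 3 there were 18, 27 and 9, and without combination 1, 2 or 3 there were 5 each. The fit of the 6 libraries alone called 0 genes with edgeR (906 at an unadjusted p under 0.05), limma voom with a weight per group called 0 (962), and the edgeR fit without swimming 1 left 1371 at that threshold, whereas DESeq2 called 318. Ptprb, S1pr2, Aqp1 and Rnf169 were called in 17 of the 20 settings, Jam2 in 12, Per1 in 9 and Il1r2 in 5.

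**Figure D1:**
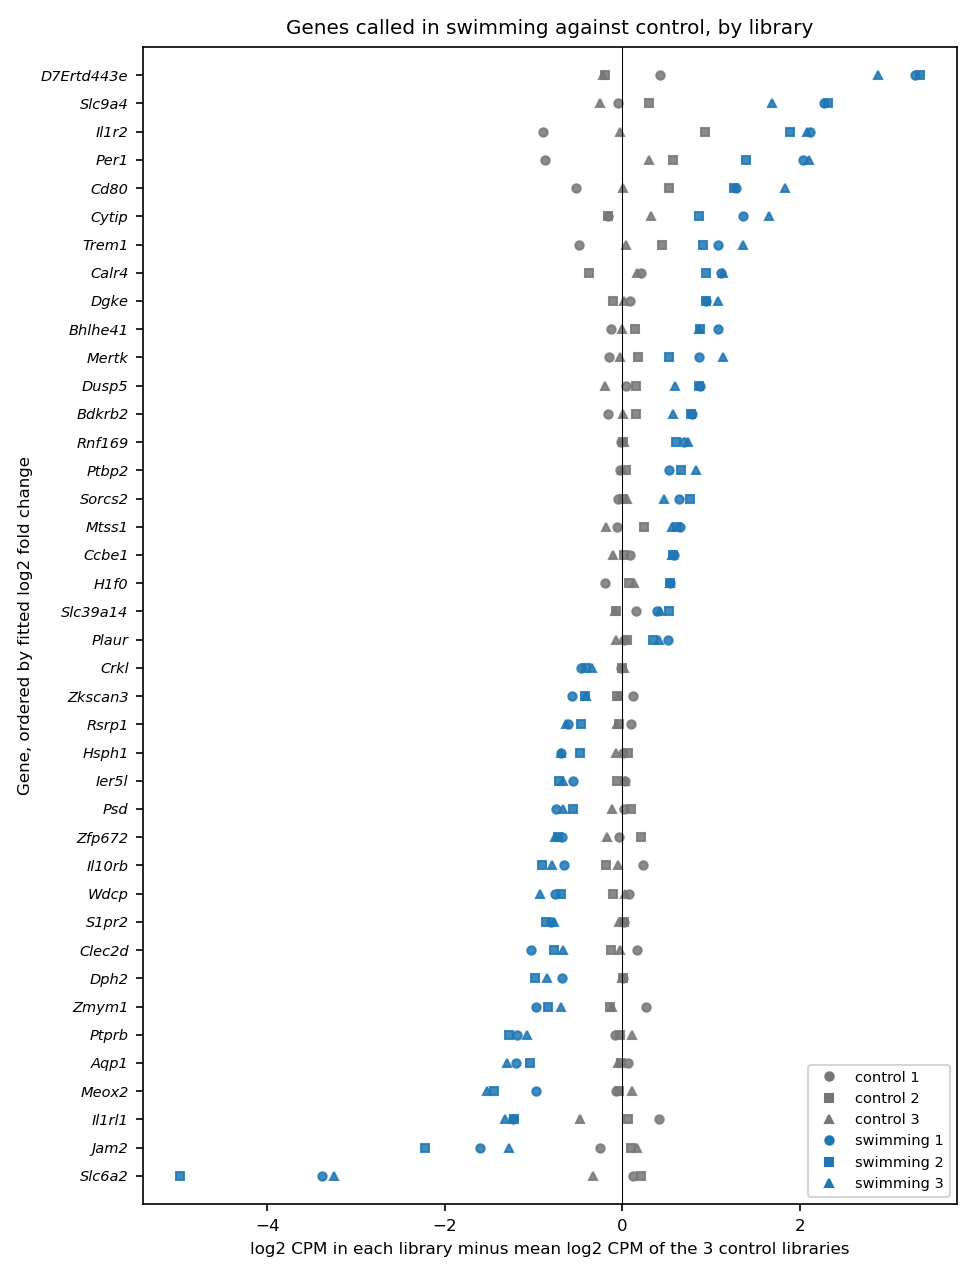
Level of each of the 40 called genes in the 3 control (grey) and 3 swimming (blue) libraries, as log2 CPM minus the mean log2 CPM of the controls; rows are ordered by fitted log2 fold change and the marker shape gives the replicate. In every row the blue and grey points are separate. The fitted log2 fold change is under 1 in size in 26 rows, although single libraries may lie further out.

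Among clock and glucocorticoid-induced genes, Per1, a core repressor of the circadian clock and a direct glucocorticoid target, and Bhlhe41 (DEC2), a clock repressor that binds E-boxes, were both called higher. E-boxes are the sites through which the CLOCK and BMAL1 activators drive such genes. The 250 bases before the transcription start of each are shown because both hold the canonical E-box CACGTG, in capitals. They are RefSeq sequences of the C57BL/6J reference, build GRCm38.p6, at chr11:69098699-69098948 on the plus strand for the upstream start of Per1 and at chr6:145865421-145865670 on the minus strand for Bhlhe41.

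Per1: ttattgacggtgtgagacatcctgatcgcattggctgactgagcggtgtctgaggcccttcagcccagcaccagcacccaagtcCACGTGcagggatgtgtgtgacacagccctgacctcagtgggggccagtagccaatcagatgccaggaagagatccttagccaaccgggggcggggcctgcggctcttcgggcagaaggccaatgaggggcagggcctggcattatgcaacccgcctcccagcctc
Bhlhe41: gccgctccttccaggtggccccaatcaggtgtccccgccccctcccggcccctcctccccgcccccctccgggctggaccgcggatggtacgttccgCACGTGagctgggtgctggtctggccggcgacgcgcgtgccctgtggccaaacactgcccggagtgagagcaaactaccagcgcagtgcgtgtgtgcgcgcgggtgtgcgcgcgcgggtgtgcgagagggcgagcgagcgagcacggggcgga

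The E-box begins 166 bases before the start of Per1 and 153 bases before that of Bhlhe41, and the window at a second Per1 start has none. Searched on both strands over 300 bases (250 before to 50 after a start), CACGTG was in 5 of 17 clock genes with a window (Bhlhe41, Ciart, Cry1, Per1 and Tef), in 3 of the 16 called-higher genes with a window and in 1 of the 11 called-lower ones. The share over tested genes with a window was 11.3%, and 7.15% over all windows. Since the clock list holds genes known to be driven through E-boxes, its share describes the list. Per1 and Bhlhe41 are among the 3 called-higher genes with a match. A match is a run of letters and not a measured binding site.

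Per1 stood at 31.7, 85.9 and 71.2 CPM in controls 1, 2 and 3 and at 237, 152 and 248 CPM in swimming 1, 2 and 3. The lowest swimming library was above the highest control, and the log2 fold change was 1.75 ± 0.28 (SE, adjusted p = 0.0308, edgeR). Bhlhe41 was at 23.6, 28.6 and 25.8 CPM in control and at 54.8, 47.5 and 47.0 CPM in swimming. Its controls were close to one another and its log2 fold change was 0.94 ± 0.14 (adjusted p = 0.0261, edgeR).

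Of 20 tested clock genes, 15 were positive, 2 were called higher and none lower, with a median of 0.17. Over all tested genes, 48.0% were positive, 0.154% were called higher and 0.139% lower. Bhlhe40 (DEC1), the paralogue of Bhlhe41, had a log2 fold change of 0.69 (adjusted p = 0.14) and Per2 of 0.47 (adjusted p = 0.24), neither called. Of 16 tested glucocorticoid-inducible genes, 11 were positive, with a median of 0.44, and Per1, which is also in the clock list, alone was called. Tsc22d3 (GILZ), which mediates part of the anti-inflammatory action of glucocorticoids, stood at 61.0, 55.9 and 71.9 CPM in control and at 114, 81.0 and 140 CPM in swimming (log2 fold change 0.82, adjusted p = 0.075). Klf9, a transcription factor induced by the same receptor, stood at 49.8, 83.3 and 35.0 CPM in control and at 111, 118 and 98.5 CPM in swimming (0.96, adjusted p = 0.14). Errfi1, an inhibitor of EGF receptor signalling, had a value of 0.43 (adjusted p = 0.081). For all 3 genes the groups did not overlap, yet none passed.

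Without control 2, in which Per1 and Klf9 were the highest of the controls, 9 of the 16 glucocorticoid-inducible genes were called higher and 1 lower, and 5 of the 20 clock genes were called higher. Over all genes that fit called 2.44% higher and 2.19% lower. Without control 3, or without swimming 1, no gene of either list was called. In those fits 11 of the 16 glucocorticoid-inducible genes were positive, and 14 and 15 of the 20 clock genes. Immediate early genes, which nerve, growth factor and stress signals induce within minutes, had 14 of 21 positive and none called (median 0.15). Klf6 (0.45, adjusted p = 0.096) and Ier3 (0.75, adjusted p = 0.14) did not overlap between groups. Fosb was at 14.4 to 24.2 CPM in control and 16.8 to 46.3 CPM in swimming. Klf2 went the other way (-0.67, adjusted p = 0.26, edgeR).

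Endothelial genes had negative values throughout, and the gene of smallest p in the comparison was among them, Ptprb (VE-PTP), the phosphatase that restrains Tie2 and stabilises endothelial junctions. It stood at 27.0, 28.1 and 30.8 CPM in control and at 12.5, 11.8 and 13.6 CPM in swimming. Within each group the libraries lay close together, and the log2 fold change was -1.18 ± 0.13 (adjusted p = 0.00545, edgeR). All 27 endothelial genes were tested and all 27 were negative, with a median of -0.75, but only Ptprb was called. Of them, 20 were at an unadjusted p under 0.05, against 7.2% of all tested genes downwards. Groups did not overlap in 12, against 7.24%. In bulk tumour, fewer endothelial cells and less RNA per endothelial cell cannot be told apart.

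Pecam1 (CD31), an adhesion molecule of endothelial contacts, stood at 125, 119 and 91.8 CPM in control and at 72.1, 73.7 and 53.7 CPM in swimming (-0.75, adjusted p = 0.056). Tek (Tie2), the angiopoietin receptor, had 5.45, 10.4 and 6.88 CPM against 3.08, 2.91 and 2.01 CPM (-1.51, adjusted p = 0.060). Plvap, which forms the diaphragms of fenestrated endothelium, had a value of -0.76 (adjusted p = 0.067). In these 3 genes every swimming library was below every control. The members least different were Flt1 (VEGFR1), at -0.11, and Eng (endoglin), at -0.13.

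The summed level of the 27 genes was 789.5 to 971 CPM in control and 531 to 662.5 CPM in swimming, so the sums did not overlap. Without control 2, which had the highest sum, 25 of 27 were negative, the median was -0.54 and 4 were called lower, against 2.19% of all genes. Fibroblast genes stood beside them, with 13 of 15 negative (median -0.27) and none called. Without control 2, which had the lowest fibroblast level, 14 of 15 fibroblast genes were negative (median -0.54). Of these 15 genes that fit called 6 lower and 1 higher, against 2.19% and 2.44% of all genes. Without control 1 or control 3, 10 of 15 were negative (medians -0.21 and -0.10). Without swimming 1 or 2, 14 of 15 fibroblast genes were negative, and 9 of 15 without swimming 3. None of these other fits called a fibroblast gene. The part of fibroblast genes in the vessel gene values was not tested. Among 26 genes of angiopoietin, Notch and VEGF signalling the median was -0.25, with 18 negative and none called. Aplnr, the apelin receptor of growing vessels, was at -1.49 (adjusted p = 0.085) and Nrp1, a VEGF co-receptor, at -0.60 (adjusted p = 0.088). Of 12 tested pericyte and smooth muscle genes, 5 were positive and 7 negative, and none was called. Their median was -0.23, or 0.03 without swimming 3. Cspg4 (0.87, adjusted p = 0.25, edgeR) and Ndufa4l2 (0.77, adjusted p = 0.28) were positive, and Abcc9 was negative (-0.68, adjusted p = 0.14). Rgs5, a pericyte regulator of G protein signalling, stood at 38.5, 23.0 and 54.9 CPM in control and at 14.5, 16.8 and 18.5 CPM in swimming (-1.23, adjusted p = 0.055).

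Aqp1, Jam2 and Meox2, none of them in the endothelial list, were called lower as well. Aqp1, the water channel of capillary endothelium and red cells, fell from 73.5, 69.9 and 68.3 CPM to 30.7, 34.2 and 28.6 CPM (log2 fold change -1.18 ± 0.15, adjusted p = 0.0121). Blood cell genes had 7 of 7 tested members positive, with a median of 0.74 (1.01 without control 2 and 0.22 without swimming 3) and none called on all libraries. Jam2, a junctional adhesion molecule of endothelial contacts, fell from 6.48, 8.29 and 8.64 CPM to 2.54, 1.65 and 3.20 CPM (-1.66 ± 0.24, adjusted p = 0.0261). Meox2, a homeobox factor of vascular and mesodermal cells, fell from 6.36, 6.51 and 7.24 CPM to 3.42, 2.44 and 2.32 CPM (-1.30 ± 0.21, adjusted p = 0.0308). In all 3 genes every swimming library was below every control.

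S1pr2, a receptor for sphingosine 1-phosphate that acts on vascular barrier and cell migration, was among the tightest differences of the comparison. It stood at 50.3, 50.5 and 48.5 CPM in control and at 28.4, 27.4 and 29.1 CPM in swimming, a log2 fold change of -0.81 ± 0.09 (adjusted p = 0.00545, edgeR). Of 9 tested genes of that pathway, 5 were negative and S1pr2 alone was called. S1pr1, the receptor of opposite effect on the barrier, was at -0.42 (adjusted p = 0.35) and its groups overlapped. The kinase Sphk1 was at 0.37 (adjusted p = 0.52).

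**Figure D2:**
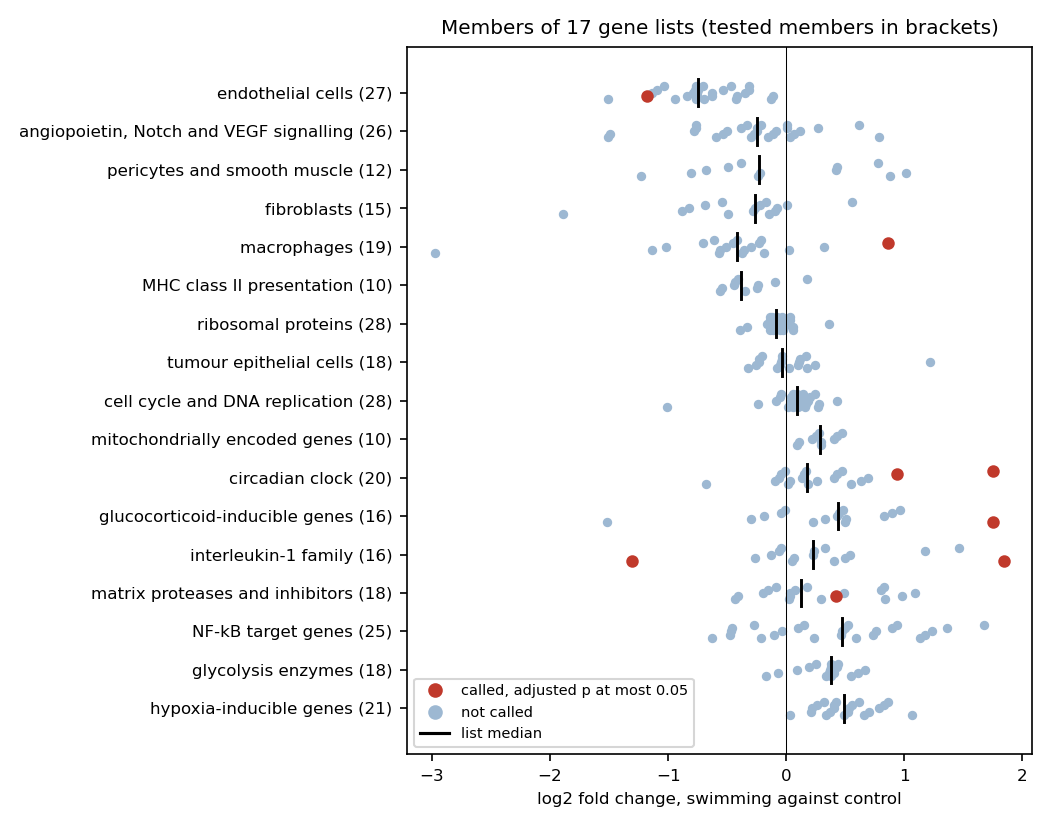
Log2 fold change of swimming against control for the tested members of 17 gene lists; each point is a gene, red points are called, and the black bar is the list median. All 27 endothelial members lie below 0 and all 21 hypoxia members above it, with few red points in either.

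All 21 hypoxia-inducible genes were positive, with a median of 0.49, but none was called. Of them, 13 were at an unadjusted p under 0.05, against 5.9% of all tested genes upwards. Groups did not overlap in 8, against 5.83%. Vegfa, the main angiogenic growth factor, stood at 179, 170 and 96.8 CPM in control and at 258, 297 and 213 CPM in swimming (0.79, adjusted p = 0.11). Ero1a, an oxidase of the endoplasmic reticulum, stood at 212, 201 and 117 CPM in control and at 291, 364 and 284 CPM in swimming (0.82, adjusted p = 0.098). Control 3 was the lowest library for both genes. Egln1 (PHD2), the oxygen sensor that marks HIF for degradation and is itself a HIF target, was at 0.43 (adjusted p = 0.075), and Pdk1, which diverts pyruvate from mitochondria, at 0.53 (adjusted p = 0.14).

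The HIF recognition core is ACGTG, and it is part of CACGTG, so every E-box also counts as a match. In the 300-base windows it was found in 12 of 17 hypoxia-inducible genes with a window (70.6%) and in 12 of 18 glycolysis genes (66.7%), beside 28.6% of tested genes. Since the lists hold known HIF targets, that share describes the lists. Among the named hypoxia genes, Egln1 and Ero1a hold a match in the 250 bases before the start. Vegfa holds a match at its second start but not at its first, and Pdk1 at neither of its starts. Ero1a is shown as the member of smallest p but one, with its match in capitals (written CACGT on this strand), 63 bases before the start, from RefSeq GRCm38.p6 at chr14:45318573-45318822, minus strand.

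Ero1a: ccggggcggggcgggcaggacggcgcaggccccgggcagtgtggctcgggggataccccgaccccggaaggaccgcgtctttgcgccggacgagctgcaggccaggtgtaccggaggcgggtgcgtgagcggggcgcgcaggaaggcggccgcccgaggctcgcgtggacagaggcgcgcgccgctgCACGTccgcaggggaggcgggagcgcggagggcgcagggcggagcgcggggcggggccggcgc

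Of 18 glycolysis genes, 16 were positive, with a median of 0.38, and none was called. At an unadjusted p under 0.05 were 13, against 5.9% of all tested genes upwards, and 5 did not overlap, against 5.83%. Pgk1, the first ATP-yielding enzyme of the pathway, stood at 374, 515 and 345 CPM in control and at 588, 698 and 592 CPM in swimming (0.61, adjusted p = 0.088). Gapdh was at 0.67 (adjusted p = 0.12), Aldoc at 0.40 (adjusted p = 0.14) and the phosphofructokinase Pfkp at 0.41 (adjusted p = 0.14).

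The level of the hypoxia list was -0.06, 0.23 and -0.61 for controls 1, 2 and 3, and swimming 1, 2 and 3 had 0.41, 0.57 and 0.22. Control 2 and swimming 3 thus lay at nearly the same level. Without control 2, 14 of the 21 hypoxia genes and 13 of the 18 glycolysis genes were called higher, against 2.44% of all genes. Without control 3 none was called, with 20 of 21 and 16 of 18 positive. The control libraries differed most among themselves of the 4 groups, with a biological coefficient of variation of 26.7%, against 16.4% in swimming. It was 12.4% in curcumin and 6.47% in combination, whose libraries also entered the shared estimate of spread behind the p-values.

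**Figure D3:**
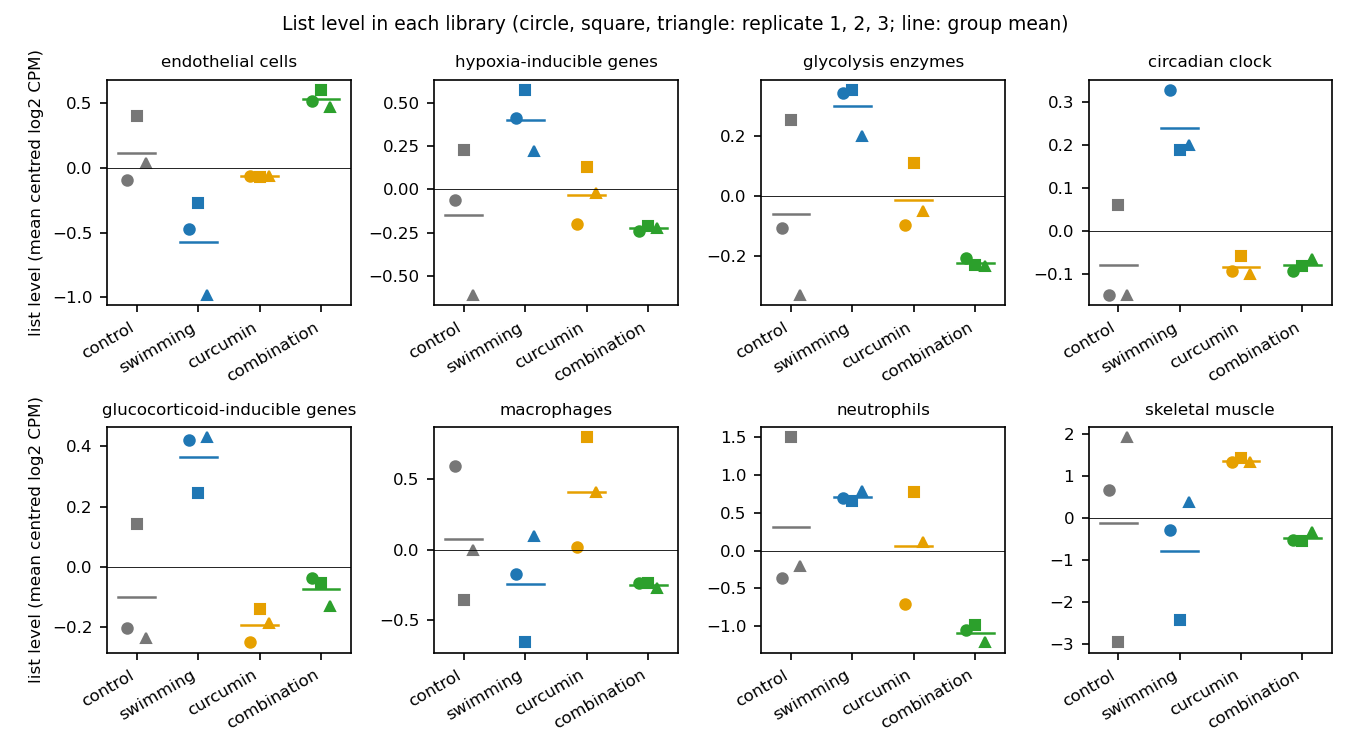
Level of 8 gene lists in each of the 12 libraries, as the mean over members of centred log2 CPM; circle, square and triangle are replicates 1, 2 and 3 and the line is the group mean. Control 2 sits above the other controls for hypoxia, glycolysis and neutrophil genes and far below them for muscle genes, and the swimming libraries are the lowest for endothelial genes.

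Slc6a2, the plasma membrane transporter that clears noradrenaline at sympathetic endings, had the largest fall among the called genes. Controls 1, 2 and 3 held 75, 82 and 57 of its reads, whereas swimming 1, 2 and 3 held 6, 2 and 7. Summed, these were 214 and 15 counts, a ratio of 13.4 after scaling for library size, with an exact interval of 7.94 to 24.3 (95%, counting error only). The fitted log2 fold change was -3.67 ± 0.52 (adjusted p = 0.0237, edgeR). Curcumin libraries held 16, 12 and 21 counts, which lay between both groups.

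No other gene of noradrenaline handling or of the adrenergic receptors was called, and 9 of the 18 listed had too few counts to be tested. The synthesis enzymes Th and Dbh, which mark sympathetic neurons, had 0 counts in all libraries. Maob, an amine oxidase, was at 0.848, 0.710 and 1.05 CPM in control and 1.81, 2.44 and 1.50 CPM in swimming (1.13, adjusted p = 0.20). The vesicular transporter Slc18a2, present also in mast cells and platelets, was at -0.32 (adjusted p = 0.64).

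In the interleukin-1 family a pair of receptors changed in opposite directions. Il1r2, the decoy receptor that binds interleukin-1 without signalling, rose from 4.79, 16.9 and 8.75 CPM to 38.6, 33.0 and 37.6 CPM (log2 fold change 1.84 ± 0.33, adjusted p = 0.0431). Il1rl1 (ST2), the receptor for interleukin-33, fell from 10.3, 8.05 and 5.54 CPM to 3.28, 3.31 and 3.07 CPM (-1.30 ± 0.23, adjusted p = 0.0404). For Il1r2 the controls spread widely and the swimming libraries were alike, and for Il1rl1 the same held.

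Their ligands were not called. Il1a was at 35.3, 38.6 and 26.3 CPM in control and 74.6, 99.6 and 52.0 CPM in swimming (1.18, adjusted p = 0.051), and Il33 at 5.15, 2.78 and 6.77 CPM in control and 13.5, 7.93 and 19.2 CPM in swimming (1.47, adjusted p = 0.099). Groups did not overlap for either. Il1b was at 0.23 and the signalling receptor Il1r1 at -0.13, with overlapping groups. Over the 16 tested members of the family, 11 were positive and the median was 0.23.

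Il1r2 and Il1rl1 lie in the interleukin-1 receptor cluster of chromosome 1, and the called gene Slc9a4 ends the same stretch, an arrangement noticed after the values were seen. In the coordinates of the deposited table the span from the start of Il1r2 to the end of Slc9a4 is 40113239 to 40669885, or 556.6 kb. Slc9a4 (NHE4), a sodium-proton exchanger, had 10, 13 and 9 counts in control and 45, 47 and 32 in swimming, a ratio of 4.13 (exact interval 2.78 to 6.30) and a fitted log2 fold change of 2.08 ± 0.34 (adjusted p = 0.0308). The genes between them were not called: Il1r1 at -0.13, Il1rl2 at 0.41, Il18r1 at -0.05 and Il18rap at 0.54. Called neighbours thus differed in direction, and genes beyond the span, Map4k4 (0.08) and Mfsd9 (0.49), were not called either.

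**Figure D4:**
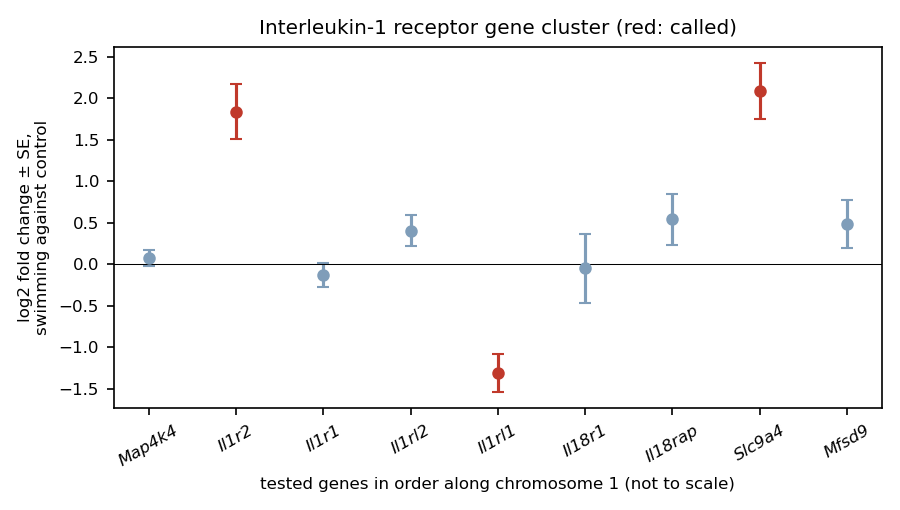
Log2 fold change with its standard error, swimming against control, for the tested genes of the interleukin-1 receptor cluster and its neighbours, in chromosomal order and not to scale. The red points, Il1r2 at 1.84, Il1rl1 at -1.30 and Slc9a4 at 2.08, are called, and the others lie between -0.13 and 0.54.

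Trem1, a receptor that amplifies neutrophil and monocyte inflammation, rose from 10.9, 20.9 and 15.7 CPM to 32.3, 28.6 and 39.1 CPM (1.07 ± 0.20, adjusted p = 0.0455). Cd80, the costimulatory ligand of CD28 and CTLA4, rose from 4.85, 10.1 and 7.00 CPM to 16.9, 16.7 and 24.9 CPM (1.42 ± 0.26, adjusted p = 0.0479). Mertk, a receptor for engulfing dying cells, rose from 19.0, 23.9 and 20.7 CPM to 38.5, 30.4 and 46.4 CPM (0.86 ± 0.16, adjusted p = 0.0431). Cytip, which regulates adhesion of dendritic cells and lymphocytes, rose by 1.30 ± 0.20 (adjusted p = 0.0261). In all 4 genes swimming 2, the library low in T cell markers, was the lowest of its group and still above every control.

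Of 19 tested macrophage genes, 16 were negative, with a median of -0.42, and only Mertk was called. Apoe, the lipid carrier of tumour macrophages, was at 2003, 1219 and 1567 CPM in control and 874, 425 and 1061 CPM in swimming (-1.02, adjusted p = 0.17), and Trem2 was at -0.70 (adjusted p = 0.19). The macrophage level ran from -0.35 to 0.60 in the control libraries and from -0.66 to 0.10 in the swimming libraries, so it overlapped. Without control 1 the median of the macrophage list was -0.06. Neutrophil genes had a median of 0.06 with none called. Without control 2, whose neutrophil level was the highest of all, the median was 1.05 and 4 were called higher, against 2.44% of all genes. Without control 1 or control 3 the median was -0.20 and -0.15, with 2 positive and 9 negative in each and none called. The direction of the neutrophil list thus changed with the control left out. The part of neutrophil genes in the Trem1 and Il1r2 values was not tested.

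Among 13 tested costimulatory and checkpoint ligands 7 were positive and Cd80 alone was called, and Cd86, its companion ligand, was at 0.22 (adjusted p = 0.74). Among 13 tested engulfment genes 9 were positive and Mertk alone was called, whereas its ligand Gas6 was at -0.66 (adjusted p = 0.27). Il10rb, the shared subunit of interleukin-10 family receptors, fell by 0.79 ± 0.14 (adjusted p = 0.0404), and it overlaps Gm21970 on the same strand, so its counts may not be its own. Clec2d, a ligand of an inhibitory natural killer receptor, fell by 0.82 ± 0.14 (adjusted p = 0.0404).

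Genes of invasion and growth signalling were also called. Plaur, the receptor that holds urokinase at the cell surface, rose from 129, 132 and 121 CPM to 182, 162 and 169 CPM (0.42 ± 0.07, adjusted p = 0.0404). Of 18 matrix proteases and inhibitors, 13 were positive, 7 did not overlap upwards (against 5.83% of all tested genes) and Plaur alone was called. Mmp13, a collagenase, stood at 168, 160 and 101 CPM in control and at 248, 318 and 279 CPM in swimming and just missed the threshold (0.98, adjusted p = 0.051). Adamts1 was at 1.09 (adjusted p = 0.10) and Mmp10 at 0.82 (adjusted p = 0.11).

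Of 25 tested NF-kB target genes, 17 were positive with a median of 0.47, and none was called. Traf1 (-0.48, adjusted p = 0.081) and Nfkbiz (0.73, adjusted p = 0.15) did not overlap between groups, in opposite directions, and Csf3, the neutrophil growth factor, was at 0.59 (adjusted p = 0.23). Without control 2 the list median was 0.70, with 9 called higher and 1 lower, against 2.44% and 2.19% of all genes. Without control 3 the list median was 0.25, with 16 of 25 positive and none called.

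Signalling genes called higher included Dusp5, a nuclear ERK phosphatase, at 35.0, 38.0 and 29.8 CPM in control and 62.5, 62.1 and 51.5 CPM in swimming (0.78 ± 0.12, adjusted p = 0.0261). Bdkrb2, the bradykinin receptor, rose by 0.71 ± 0.11 (adjusted p = 0.0261) and Dgke, a kinase that removes diacylglycerol, by 0.99 ± 0.15 (adjusted p = 0.0273). Crkl, an adaptor of tyrosine kinase signalling, fell by 0.41 ± 0.07 (adjusted p = 0.0404), the smallest called change. Erbb3, a partner of ERBB2, was at -0.71 (adjusted p = 0.051).

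Rnf169, a ubiquitin-binding protein of DNA break repair, stood at 28.2, 28.8 and 28.9 CPM in control and at 46.4, 43.4 and 47.7 CPM in swimming, a log2 fold change of 0.68 ± 0.09 (adjusted p = 0.0121). H1f0, the linker histone of resting cells, rose by 0.53, Ptbp2, a splicing regulator, by 0.68, Slc39a14, a zinc importer, by 0.44, and Ccbe1, which promotes processing of the lymphatic growth factor VEGF-C, by 0.56. Mtss1 (0.60), Sorcs2 (0.62) and Calr4 (1.04) were also higher. D7Ertd443e had 3, 2 and 2 counts in control and 20, 21 and 16 in swimming, a ratio of 8.68 (exact interval 3.95 to 22.6), and its curcumin libraries, at 11 to 13 counts, lay between.

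Hsph1, the co-chaperone HSP110, fell from 192, 200 and 181 CPM to 118, 137 and 118 CPM (-0.62 ± 0.10, adjusted p = 0.0404) and was the only called heat shock gene of 15 tested, 11 of which were negative with a median of -0.07. Hspa1b stood at 115, 585 and 107 CPM in control and 156 to 200 CPM in swimming, and its log2 fold change was -0.54, or 0.74 without control 2. Reads of its near-identical copy Hspa1a may be split with it. Lower as well were Zmym1 (-0.84), Dph2 (-0.83), Wdcp (-0.79), Zfp672 (-0.73), Psd (-0.66), Ier5l (-0.65), Rsrp1 (-0.57) and Zkscan3 (-0.47), of which Dph2 acts in diphthamide synthesis and Zkscan3 represses autophagy genes. Psd overlaps Nfkb2 and Sorcs2 overlaps Psapl1 on the opposite strand, and whether counting used strand is not stated.

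Of 13 tested water channels and ion exchangers, Aqp1 and Slc9a4 were called in opposite directions, and Aqp5 was at 4.06, 7.16 and 5.37 CPM in control and 2.54, 2.25 and 2.70 CPM in swimming (-1.15, adjusted p = 0.088). Cholesterol synthesis genes had 19 of 20 positive with a median of 0.24, but without control 2 the count was 9 of 20 and the median -0.06. Mitochondrially encoded genes had 10 of 10 positive with a median of 0.28, and 9 of 10 without control 2. Of 28 cell cycle genes 23 were positive (median 0.09), with 4 positive without control 2 (median -0.15) and 11 without swimming 2 (median -0.07), so the direction of that list changed with either library. Skeletal muscle genes had 18 of 20 negative (median -1.04), with levels overlapping between the groups, and the median was -0.05 without control 3.

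The 10 genes of smallest p that were not called stood at adjusted p of 0.051 to 0.0551. Besides Mmp13, Il1a, Erbb3 and Rgs5, they were Nfya (-0.53), Rbm33 (0.38), Srsf5 (0.47), Ank3 (0.60), Rubcn (-0.45) and Calcrl (-1.35). Calcrl, the receptor that with Ramp2 binds adrenomedullin on endothelium, was at 3.82, 3.61 and 6.01 CPM in control and 1.61, 1.65 and 2.01 CPM in swimming. Genes just inside the threshold were Rsrp1 and Cd80, at 0.0486 and 0.0479.

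Swimming was also compared between the other 6 libraries, combination against curcumin, which asks whether the same genes moved when mice of both groups received curcumin. The means of that comparison come from libraries not used for the means of the first, but both share 1 estimate of spread over all 12. It called 122 genes (0.895%). Its count was 219 and 719 without control 1 and 2, 3 and 5 without curcumin 2 and 3, 48, 194 and 194 without swimming 1, 2 and 3, and 5, 2 and 3 without combination 1, 2 and 3. Of the 40 genes called in swimming alone, 31 had the same sign there (77.5%, beside 57.5% of all tested genes), 18 of 21 higher genes and 13 of 19 lower ones. The median change in the direction of the first comparison was 0.16 against 0.82, and since the 40 were chosen by their size and p in the first, nothing is read from that gap. Slc6a2 and Ptbp2 were called in both. Slc6a2 had 49 summed counts in curcumin and 2 in combination, a ratio of 26.0 (exact interval 6.84 to 221), and Ptbp2 was higher by 0.52 (adjusted p = 0.041).

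A test of the difference between both swimming effects called 19 genes (0.139%), 2 of them among the 40. Ptprb was at -1.18 without curcumin and 0.51 with it (difference 1.69, adjusted p = 0.00816), and Meox2 at -1.30 and 0.73 (difference 2.03, adjusted p = 0.022). With curcumin 25 of 27 endothelial genes were positive, with a median of 0.57, and 19 of 21 hypoxia genes were negative, with a median of -0.21. Per1 (0.75, adjusted p = 0.19) and Il1r2 (1.10, adjusted p = 0.12) kept their sign without being called, and neither differed by the test (adjusted p = 0.37 and 0.58), which does not show that they responded alike. The 19 depended on the libraries: leaving out control 2 gave 448 and swimming 2 gave 95, leaving out curcumin 1, 2 or 3 gave 4, 7 and 1, combination 2 gave 1, and leaving out swimming 1, combination 1 or combination 3 gave 0 with edgeR (1376, 1233 and 1200 at an unadjusted p under 0.05), beside 217 from DESeq2 on all libraries.

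**Figure D5:**
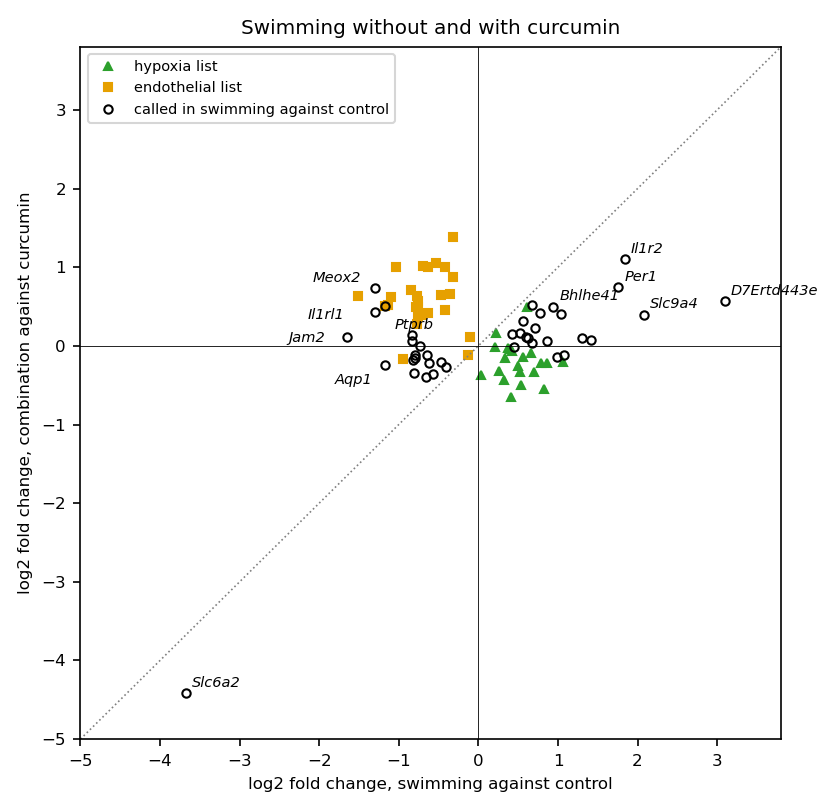
Log2 fold change of swimming against control (x) and of combination against curcumin (y) for the 40 called genes (open circles), 27 endothelial genes (squares) and 21 hypoxia genes (triangles); the dotted line marks equal values. Slc6a2 is low on both axes, endothelial genes lie mainly in the upper left and hypoxia genes mainly in the lower right.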

How the data were processed

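Total RNA of tumours was sequenced in 12 libraries, 3 for each of 4 groups taken from the sample titles. The deposited table holds a read count and an FPKM value per gene and library, made by the authors. Per the labels' protocols, reads were mapped to mm9 with HISAT2 2.0.5 and counted with HTSeq 0.9.1. The submitters' processing notes name GRCm39, cutadapt, TopHat2 and DESeq 1.30.0 as well, so the build is stated in 2 ways and coordinates are given as the table holds them. Whether counting used strand is not given in the sources used here. The FPKM values in the deposited table equal count over gene length and library total for all 184877 values above 0 (relative tolerance 1e-05) and were used only for that check.

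Counts were filtered with filterByExpr (minimum count 10), scaled by TMM and fitted over all 12 libraries in edgeR 4.0.16 (R 4.3.3) with quasi-likelihood F-tests, leaving 8 residual degrees of freedom. Adjustment (Benjamini-Hochberg) covered all 13638 tested genes. For list levels, log2 CPM (prior count 2) was centred per gene over the libraries and averaged over members. Intervals on summed counts are exact (Clopper-Pearson) and, like the floor of 3 counts, cover counting error only. The scripts were tested on simulated data.

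Members and the 53 gene lists (923 entries) were chosen with earlier results of these data known, and no set test was run. Named genes were all 40 called, the 4 members of smallest p in each list described, the 10 uncalled genes of smallest p and 5 per direction from the test of the difference. Other genes given with values were picked after these were seen. Promoter motifs were searched in RefSeq windows of build GRCm38.p6, available for 27 of the 40 called genes.

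As alternatives, each library was left out in turn, the 6 libraries were fitted alone, a replicate block was added, low counts were left in or cut at a mean of 50, scaling was switched to RLE, and DESeq2 1.42.0 or limma 3.58.1 (voom with a weight per group) replaced edgeR. A robust quasi-likelihood fit was added after seeing the data.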

Additional observations from a re-analysis of the deposited data

Results flagged for a closer look

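The effect of swimming differed with curcumin by a test of the difference itself (edgeR, adjusted p of 0.05 or below) for the 12 genes given here as combination against curcumin minus swimming against control, on the log2 scale. Positive differences were found for Ptprb (1.69) and Plvap (1.32), the 2 of 27 endothelial genes with a called difference, and for Aplnr (2.64), Meox2 (2.03) and Sparcl1, a matrix protein (1.57). Sparcl1 stood at 197 ± 34.7 CPM in control, 111 ± 22.5 in swimming, 153 ± 21.1 in curcumin and 256 ± 7.28 in combination (SD, n = 3 each). Erbb3 differed by 1.37, and Aspa, which cleaves N-acetylaspartate and is found in fat, by 3.04. Adipocyte genes had 8 of 9 positive in combination against curcumin, with a median of 1.01, and list levels of -0.67 to -0.35 in curcumin and 1.12 to 1.17 in combination, and their part in the Aspa value was not tested.

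Differences were negative for Gbe1, the glycogen branching enzyme (-1.25), Slpi, a secreted inhibitor of neutrophil elastase (-1.63), Unc13a (-1.06), Itgb2, the leukocyte integrin chain CD18 (-1.28), and Cwc22, a splicing factor (-2.94). Cwc22 has near-identical copies among which reads may be split, so its value is uncertain. Itgb2 moved beside the neutrophil list, whose median was 0.06 in swimming against control and -1.40 in combination against curcumin, and the part of cell content in its value was not tested.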

How the results depend on the processing

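For swimming against control the 40 calls became 318 with DESeq2, 0 with the 6 libraries alone, 4 with the replicate block, 0 with limma voom and a weight per group, and 0 to 639 when 1 library was left out. For combination against curcumin the 122 calls became 700, 27 (replicate block) and 1933 (voom), and 2 to 719 with a library left out. For the difference of both effects the 19 calls became 217 with DESeq2, 34 with RLE scaling, 40 without a filter, 32 with a mean count of at least 50, 5 with the replicate block, 36 with voom, 34 with the robust fit, and 0 to 448 with a library left out. RLE scaling (41), no filter (57), the stricter filter (46) and the robust fit (42) kept the first count within 1.5 times. The causes of these shifts were not tested. The replicate numbers were not used to pair libraries in the main fit. Deviations of same-numbered swimming and control libraries correlated at 0.01, 0.11 and 0.16, and those of unlike-numbered ones at -0.19 to 0.05. These values do not settle whether same-numbered libraries belong together. The 40 called genes were each called in 5 to 17 of the 20 other settings. Of the named genes, Hspa1a (1.18) and Hspa1b (0.74) reversed sign without control 2, against -1.68 and -0.92 at the other end of their left-out values. Genes with few counts, such as D7Ertd443e, are limited by depth.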

Other observations

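Lists not described above held uncalled genes whose 3 and 3 libraries did not overlap, given here as values picked after they were seen. Alox5, the enzyme that starts leukotriene synthesis, stood at 1.88, 2.49 and 1.93 CPM in control and at 6.23, 10.4 and 3.38 CPM in swimming (log2 fold change 1.67, adjusted p = 0.096, edgeR). Igf1, the growth factor, stood at 10.5, 1.60 and 8.23 CPM in control and at 1.34, 1.06 and 1.44 CPM in swimming (-2.39, adjusted p = 0.081), so control 2 lay near the swimming libraries. Cxcl1, a neutrophil chemokine, stood at 4.54 to 42.9 CPM in control and at 47.3 to 56.9 CPM in swimming (1.36, adjusted p = 0.33).

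Single libraries held very high values of macrophage genes. Cd163 was at 125 CPM in control 1 and at 0.237 to 8.84 CPM in the other 5 libraries of the comparison, and Ccl8, a monocyte chemokine, was at 140 CPM in control 1 and at 1.72 to 12.2 CPM in the others. Type I interferon genes had 13 of 22 positive and ribosomal protein genes 5 of 28, with medians of 0.01 and -0.08 and no calls. Both depended on single libraries. Without control 2, 25 of 28 ribosomal protein genes were positive (median 0.10), with 1 called higher, against 2.44% of all genes. Interferon genes had 6 of 22 positive without swimming 3 and 19 of 22 without swimming 2.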
